A study of Mus musculus with 74 samples.

Results

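CpG-rich peaks far from gene starts were the binding sites of KRAB zinc finger proteins of the mouse (KRAB-ZFPs) whose 200 bp window held at least 50% G and C and an observed to expected CpG ratio of at least 0.6, with a midpoint more than 5 kb from every annotated transcript start. The ratio compares the CpG dinucleotides of a window with the number its C and G content predicts. Of 53011 peaks matched to 67 KRAB-ZFPs, 3899 met this rule, which is 7.36% (95% Wilson interval 7.14 to 7.58%, counting error only). They fell into 3770 merged loci and came from 52 KRAB-ZFPs, while 15 KRAB-ZFPs had none. The rule used the sequence and position of the window and no binding value.

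The peaks came from ChIP-seq of overexpressed, epitope-tagged KRAB-ZFPs, and each protein was assayed in 1 sample, so no value has a replicate error. F9 EC cells, a mouse embryonal carcinoma line, carried 18 KRAB-ZFPs with a FLAG tag and 30 with an HA tag, both set against input and a control ChIP of the same tag, and another 10 with an HA tag whose reads were aligned with Bowtie2 and set against a control ChIP labelled Gm14296_control. B6 ES cells, embryonic stem cells of a mouse strain, carried 9 HA-tagged KRAB-ZFPs set against input alone. Expression from a transgene is what all these samples share, so they describe where an overexpressed protein can be found rather than the endogenous protein. The tags summed over the peaks of a KRAB-ZFP numbered 1681 to 540220. Library depth itself is unknown here, so a locus without a peak may still have been bound.

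KRAB-ZFPs bind DNA through an array of zinc fingers and recruit the corepressor KAP1 through the KRAB domain, which brings histone H3 lysine 9 methylation to the site. For DNA methylation, the paper reads its data as compatible with a hypothesis. In it, KRAB-ZFPs and KAP1 need not set up the mark but shield some retrotransposons from its loss under certain conditions. CpG is the main substrate of DNA methylation in vertebrates, and a methylated CpG mutates readily, so most of the mammalian genome is poor in it. The exceptions are the CpG islands at many promoters and, among others, retrotransposons that inserted recently enough to have kept their CpGs.

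The member with the highest fold enrichment over background is shown for 7 of the 8 KRAB-ZFPs with the most members. Some of these windows show the kinds of sequence that the rest of the text describes, but a strongest member need not be typical of its protein. All are on the plus strand of mm9, with each CpG in capitals. The window of Gm21082 lay at chr13:107074421-107074620, that of Gm14419 at chr1:182542726-182542925, that of Gm14412 at chr3:61248621-61248820 and that of Gm13152 at chr13:55572789-55572988. The window of Zfp961 lay at chr13:62441488-62441687, that of Zfp429 at chr8:128317264-128317463 and that of Gm13154 at chr17:48041362-48041561.
Gm21082: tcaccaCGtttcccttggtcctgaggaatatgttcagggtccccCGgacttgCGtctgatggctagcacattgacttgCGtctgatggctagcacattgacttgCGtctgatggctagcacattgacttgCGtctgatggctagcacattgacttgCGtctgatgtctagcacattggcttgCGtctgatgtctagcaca
Gm14419: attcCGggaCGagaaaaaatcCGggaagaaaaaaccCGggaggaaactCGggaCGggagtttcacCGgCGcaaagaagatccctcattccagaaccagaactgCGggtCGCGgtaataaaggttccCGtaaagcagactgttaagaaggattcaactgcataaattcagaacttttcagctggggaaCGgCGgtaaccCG
Gm14412: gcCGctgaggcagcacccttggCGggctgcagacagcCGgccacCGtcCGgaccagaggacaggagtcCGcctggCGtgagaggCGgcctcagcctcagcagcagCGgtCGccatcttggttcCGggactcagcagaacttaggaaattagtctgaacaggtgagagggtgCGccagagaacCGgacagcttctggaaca
Gm13152: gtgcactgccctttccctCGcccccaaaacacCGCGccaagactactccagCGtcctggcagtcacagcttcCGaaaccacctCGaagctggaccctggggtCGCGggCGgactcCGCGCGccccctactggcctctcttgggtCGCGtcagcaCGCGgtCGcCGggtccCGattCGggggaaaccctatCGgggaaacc
Zfp961: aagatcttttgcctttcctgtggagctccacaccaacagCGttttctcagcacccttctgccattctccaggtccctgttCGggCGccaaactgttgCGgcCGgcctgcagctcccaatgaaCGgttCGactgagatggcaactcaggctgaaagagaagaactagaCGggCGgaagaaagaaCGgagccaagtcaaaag
Zfp429: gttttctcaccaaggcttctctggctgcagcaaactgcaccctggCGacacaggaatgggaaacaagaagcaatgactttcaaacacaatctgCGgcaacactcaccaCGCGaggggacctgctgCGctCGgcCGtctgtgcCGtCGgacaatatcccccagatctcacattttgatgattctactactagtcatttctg
Gm13154: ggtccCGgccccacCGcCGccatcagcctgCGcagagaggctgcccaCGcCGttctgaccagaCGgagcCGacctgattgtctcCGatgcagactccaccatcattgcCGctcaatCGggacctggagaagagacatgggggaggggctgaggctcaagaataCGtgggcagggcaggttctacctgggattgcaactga

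The window of Gm21082 was a tandem repeat with a unit of 26 bp: 76.4% of its bases matched the base 26 positions on. It had the highest fold of all members, 190.11 with 440 tags and lay 263 kb from the nearest start (of the pseudogene Dph3b-ps). It was not typical of Gm21082: its copy number was 3 and it was in no sequence group, while 99.2% of Gm21082 members were in 1 group. The windows of Gm14419, Gm14412 and Zfp961 each belonged to one of the repeated sequence groups described further on, with folds of 75.69, 126.67 and 134.33. The Gm14419 window was intergenic, 28.7 kb from the start of Lin9, which encodes a subunit of a cell cycle repressor complex. The windows of Gm13152, Zfp429 and Gm13154 were in sequence with a copy number of 1. The first, with a fold of 118.16, was in an intron of Prr7, which encodes a neuronal membrane protein. The second, with a fold of 55.16, was in an intron of Pcnxl2. The third, with a fold of 77.09, overlapped a coding exon of the forkhead transcription factor gene Foxp4.

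Few proteins held most of the members. Gm21082 had 1691 members, Gm14419 had 1013, Gm14412 had 316 and Gm13152 had 220, and these 4 together held 83.1% of all members (interval 81.9 to 84.2%). Zfp961 had 206, Zfp429 had 96, Gm13150 had 36 and Gm13154 had 32. Another 10 KRAB-ZFPs had 10 to 28 members and 34 had 1 to 9. The median over the 67 KRAB-ZFPs was 4 members.

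Measured as a share of a protein's own peaks, the order changed. In Gm21082, 76.5% of 2211 peaks were CpG-rich and distal (interval 74.7 to 78.2%). Zfp429 followed with 37.8% of 254 peaks (32.1 to 43.9%) and Gm13150 with 36.7% of 98 (27.9 to 46.6%), and their intervals overlapped. Gm14419 had 25.9% of 3906 peaks, EtOHi1 16.4% of 67 (9.42 to 27.1%), Zfp961 14.1% of 1457, Gm14412 11.3% of 2787 and Gm14399 6.52% of 322. The interval of EtOHi1 covered the shares of Zfp961, Gm14412 and Gm14419, so its place in this order is not settled by counting error. The median over all 67 KRAB-ZFPs was 1.00%, with quartiles of 0.235% and 2.67%.

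At the other end, none of the 764 peaks of Zfp617, the 550 of Gm13051 or the 544 of Zfp808 met the rule. A count of 0 among so many allows shares of up to 0.393%, 0.545% and 0.551%. Gm14406, the protein with the most peaks, had 2 members among 5685. For scale, 0.434% of the 12791934 windows of 200 bp that tile the genome met the same rule. The interval of the share lay above that value in 28 KRAB-ZFPs. The interval lay below that value in 1 KRAB-ZFP, Gm14406, with a share of 0.0352% and an upper bound of 0.128%. For Zfp617 the limit of 3 counts, 0.393%, was below the genome share, but the upper Wilson bound was above it. Whether Zfp617 lies below the genome share is therefore not settled by counting error.

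**Figure D1:**
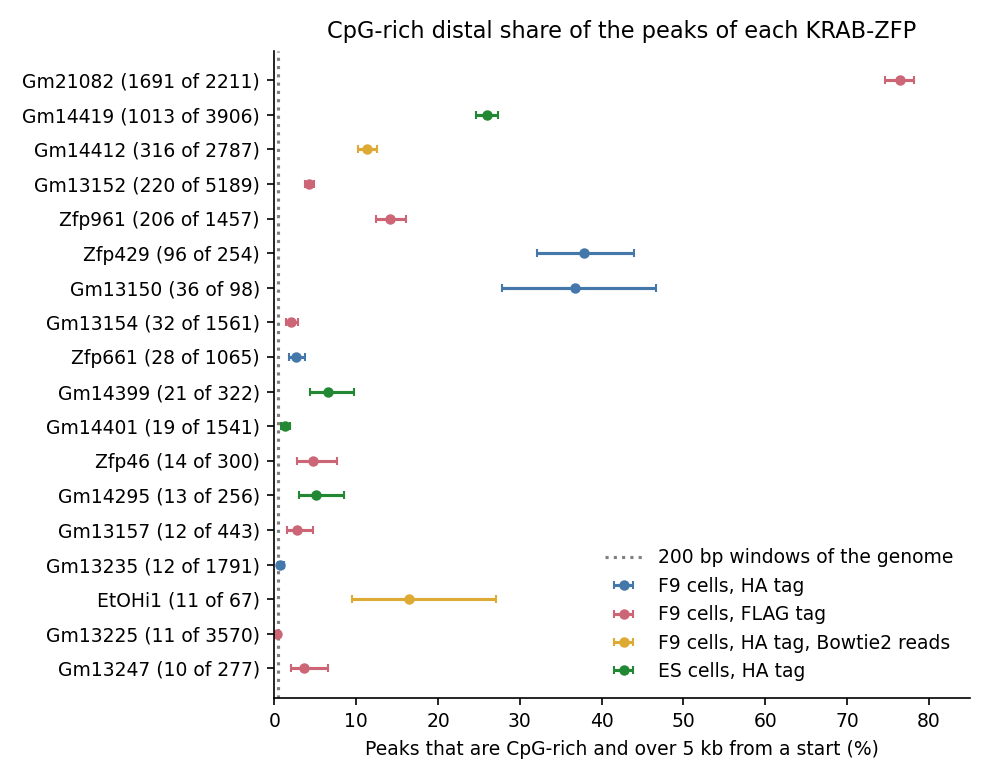
Percent of the peaks of each KRAB-ZFP that were CpG-rich and over 5 kb from every transcript start, for the 18 KRAB-ZFPs with at least 10 such peaks. Points are 1 sample each, bars are 95% Wilson intervals, colours give the cell line, tag and aligner, and the dotted line is the share of 200 bp genome windows (0.434%). Gm21082 at 76.5% stands clear of Zfp429 at 37.8% and Gm13150 at 36.7%.

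No difference in the share of members between setups passed the test. The share averaged 6.95% (SD 17.8, n = 18) in the FLAG samples of F9 cells and 3.34% (SD 9.27, n = 30) in the HA samples with the same aligner, a difference that a two-sided permutation test did not separate from the spread between KRAB-ZFPs (p = 0.444, adjusted p = 0.989 over 3 comparisons). With N-terminal tags only, the difference was 6.26 percentage points in place of 3.61 (permutation p = 0.0714, adjusted p = 0.143, n = 25). The averages in F9 and ES cells were 4.46% (SD 12.1, n = 58) and 4.93% (SD 8.16, n = 9), with p = 0.733 and an adjusted p of 0.989 by the same permutation test. F9 samples aligned with Bowtie and with Bowtie2 averaged 4.69% (SD 13.1, n = 48) and 3.36% (SD 5.74, n = 10), with p = 0.989 before and after adjustment by that permutation test. The Bowtie samples mix both tags and the Bowtie2 samples had another control, so aligner, tag and control cannot be told apart. Each group holds other proteins, so setup and protein cannot be told apart either, and without Gm21082 the first difference changed sign to -0.48 percentage points.

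The base composition of the members sat close to the rule. Their median GC content was 53.0% (quartiles 51.5 and 55.5%) and their median CpG ratio 0.827 (0.741 and 0.910), with a median of 12 CpGs per window and a maximum of 40. The 4008 CpG-rich peaks within 5 kb of a start had a median GC content of 70.5%, a ratio of 0.877 and 21 CpGs, and the other 36272 distal peaks 45.5%, 0.160 and 1. Exactly at a GC content of 50% there were 236 members, and 286 distal peaks with a ratio over 0.6 missed it by 1 base at 49.5%. The lowest member ratio was 0.60015 and the highest ratio just outside was 0.5997. The members nearest to a start lay 5002 bp away and the nearest CpG-rich peaks on the other side 4990 bp away. The ratio does not need many CpGs: 3618 members held 10 or more, and 4 held 3 or fewer.

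For Gm14419 and Gm14412, members and other distal peaks were alike in 1 of the 2 measures of the rule. The other distal peaks of Gm14419 had a median CpG ratio of 0.892, near the 0.909 of its members, and a median GC content of 48.0% against 51.5%. The other distal peaks of Gm14412 had a median GC content of 62.5%, near the 65% of its members, and a ratio of 0.306 against 0.646. Those of Gm21082 had a GC content of 58.5% and a ratio of 0.0784 against 52.5% and 0.830 in its members.

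Most members lay in repeated DNA. The copy number of a window was taken as the median number of times that its 24-base words occur in the genome, and a value of 10 or more was termed multi-copy. By this measure 3301 members, 84.7% (interval 83.5 to 85.8%), were multi-copy, against 37.0% of the other distal peaks and 6.41% of the CpG-rich peaks near starts. Among members, 42.7% had a copy number of 1000 or more. Within KRAB-ZFPs that had at least 10 peaks of each kind, members were multi-copy more often than the other distal peaks by a mean of 27.5 percentage points (55.1 against 27.7%, SD of the difference 31, n = 18), higher in 13 of 18 (two-sided sign-flip permutation test, adjusted p = 0.00711 over 13 measures). Against CpG-rich peaks near starts the mean difference was 38.9 points (52.8 against 14%, SD 26.9, n = 15), higher in 14 and lower in none, with an adjusted p of 0.00159 in the same permutation test. The first difference did not pass with a rule of a GC content of 55% and a CpG ratio of 0.65 (19.6 points, adjusted p = 0.0677 in the permutation test). Reads that fit several copies equally well had been placed at 1 of them at random, so which copy of a repeat carried the protein cannot be told apart from its equals.

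The copy number differed between proteins. For Gm21082, 84.4% of members had a copy number of 1000 or more and the median was 1244. The median was 1967.5 for Gm13150, 828 for Gm14412 and 243 for Gm14419. Zfp429 with a median of 69 and Zfp961 with 55.5 were intermediate, and 12.5% and 13.6% of their members had a copy number of 1. Gm13152 and Gm13154 were the reverse, with a copy number of 1 in 83.2% of 220 and 78.1% of 32 members. Of the 28 members of Zfp661 and the 11 of EtOHi1, none was multi-copy, although those of EtOHi1 had a median copy number of 8.

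**Figure D2:**
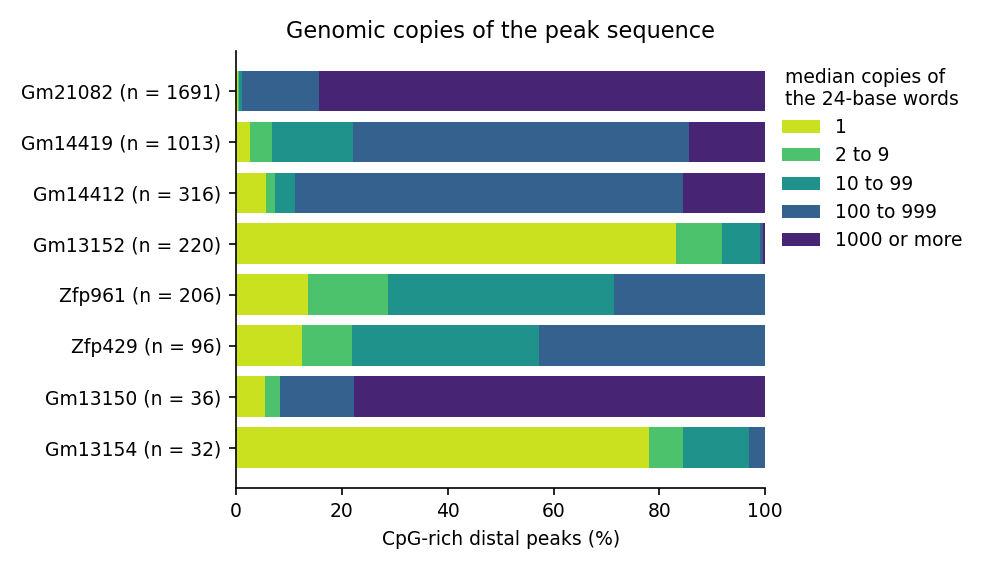
Copy number of the CpG-rich distal peaks of the 8 KRAB-ZFPs with the most of them, as the percent (x axis) in 5 classes of the median genomic count of a window's 24-base words. In Gm21082 84.4% and in Gm13150 77.8% of the windows had 1000 copies or more, while 83.2% in Gm13152 and 78.1% in Gm13154 had 1.

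Aligning the members with one another sorted 3387 of them (86.9%) into 22 groups of at least 5 windows, each within 80% identity over 100 bp or more of a shared window. The first 3 groups held 76.7% of all members. A group need not be a repeat, because overlapping windows of different proteins at 1 locus also align with one another. Groups 20 and 22 were of this kind, each with 5 windows from 5 KRAB-ZFPs and a copy number of 1. The groups were built after the windows had been seen and carry no repeat names, because no repeat annotation was used.

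The first group held 1733 members, of which 1678 were from Gm21082, 33 from Gm13150, 13 from Zfp429 and 5 from Gm14419. It took in 99.2% of the members of Gm21082. The median window had a GC content of 52.5%, a CpG ratio of 0.830 and 11 CpGs, and the copy number was 1244. Its most common 24-base word was in 94.7% of these windows and occurred 3386 times in the genome. Of those copies, 3115 lay over 5 kb from a start and 1740 (51.4%) lay inside a peak of Gm21082, and 6 more copies lay in peaks of other proteins alone.

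The windows of this group shared 2 textbook promoter elements. The word TGACGTCA, the palindromic cyclic AMP response element bound by CREB and ATF proteins, was in 97.6% of the 1733 windows, and CCAAT, the NF-Y box, in 99.6%, both strands counted. In the members of Gm21082, TGACGTCA lay a median of 8 bp from the window centre and within 50 bp of it in 98.7% of 1656 occurrences, and CCAAT lay a median of 27.5 bp away. TGACGTCA was in 0.334% of the 598 members that were not multi-copy, in 0.105% of the other distal peaks and in 4.02% of the genome windows that meet the rule. CCAAT was in 13.9%, 36.7% and 31.4% of these sets.

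Neighbouring members of Gm21082 often lay a few kilobases apart. Among 1670 pairs of neighbouring members on the same chromosome, 603 were 1 to 20 kb apart, with a median spacing of 6260 bp, and 535 were 4 to 8 kb apart. For Gm14419, 18 of 992 neighbours were 1 to 20 kb apart and 4 of them 4 to 8 kb apart, and for Gm14412 none of 295 was. For Zfp429, 19 of 76 neighbours were 1 to 20 kb apart, with a median of 3971 bp, and 9 of them 4 to 8 kb apart. As background, an intact retrovirus-like element carries the same long terminal repeat at each end, several kilobases apart. Whether these pairs are such ends was not tested.

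The second group held 856 members, of which 815 were from Gm14419, 20 from Gm14399, 6 from Gm4631, 5 from Gm13247 and 4 from Gm14410. Its windows had a GC content of 51.5%, a CpG ratio of 0.952 and a copy number of 243. The word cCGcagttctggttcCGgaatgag was in 64.0% of the windows, and of its 851 genomic copies 825 (96.9%) lay inside a Gm14419 peak. For the leading word of the fifth group, 65 of whose 66 windows were from Gm14419, 73 of 182 copies (40.1%) lay in a Gm14419 peak. The peaks of Gm14419 were called at a p threshold of 1e-05 with no threshold on enrichment, and those of Gm21082 at 1e-10 with an enrichment over 20, so these shares are not on one footing between proteins. They also depend on how reads of equal copies were placed. The word AACCAGAA, or its reverse complement TTCTGGTT, which lies within this sequence, was in 72.5% of the 69 members of Gm14419 outside multi-copy sequence, in 65.4% of its other distal peaks and in 0.567% of the 529 members of other proteins outside multi-copy sequence. It was within 50 bp of the window centre in 82.7% of 52 occurrences. This word was chosen as the 8-base word held by most of the 69 windows, so its share there is a description.

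The 2 groups lay side by side on some elements. A window of the second group at chr14:8534202-8534401, with 1000 bp on either side of its centre, served as a reference, and members were placed on it by their best alignment. Of the Gm14419 members, 809 could be placed, with centres at a median of 16 bp (quartiles 3 and 29) from the reference centre. Of the Gm21082 members, 1680 could be placed, at a median of 303 bp (294 and 310), and 33 Gm13150 members at 314 bp. The 20 Gm14399 members lay at -24 bp, beside those of Gm14419. The peak centres of Gm21082 and Gm14419 thus sat at distinct places on this reference, and 88.0% and 79.9% of them were within 25 bp of their own median. On another reference, from the seventh group, Gm14419 members lay at -293 bp and Gm21082 members at 189 bp, so the distance between them varied with the element.

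**Figure D3:**
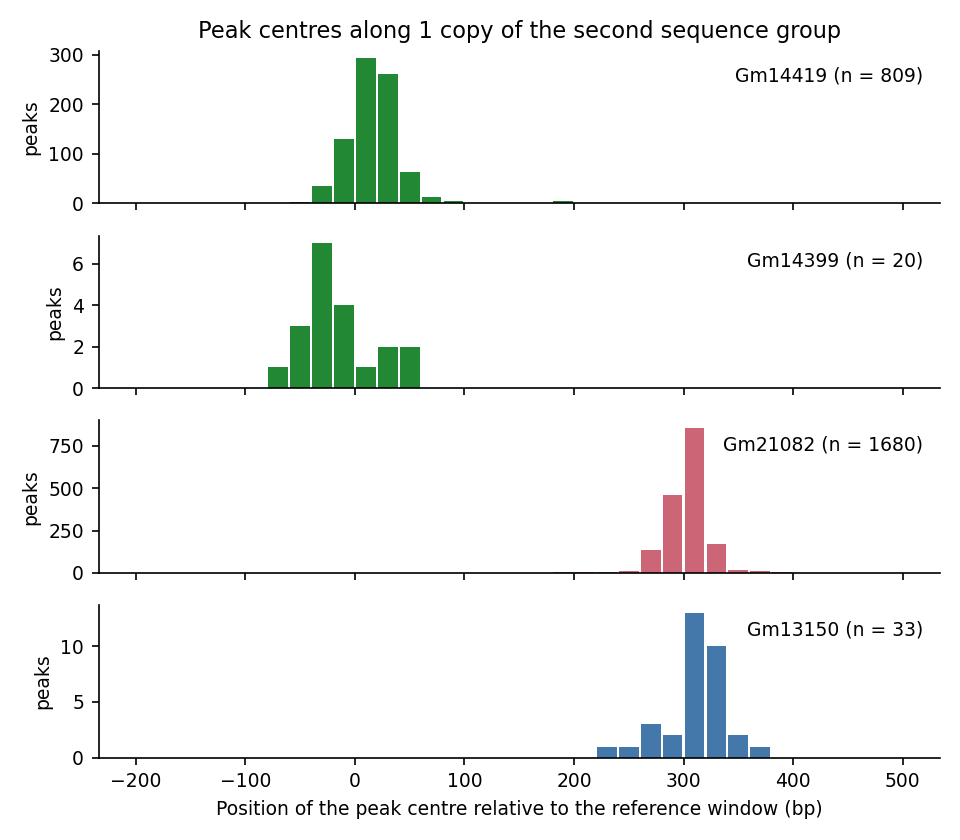
Number of peaks (y axis, in bins of 20 bp) by the position of the peak centre on 1 copy of the second sequence group (x axis, bp from the centre of the reference window), for members of 4 KRAB-ZFPs that could be aligned to it (green, ES cells; red, F9 cells with FLAG tag; blue, F9 cells with HA tag). The median positions were 16 bp for Gm14419, -24 bp for Gm14399, 303 bp for Gm21082 and 314 bp for Gm13150.

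The third group held 401 members, of which 292 were from Gm14412, 97 from Gm14419 and 8 from Gm14295. With a GC content of 65% and a CpG ratio of 0.642 it was the most GC-rich of the 3, with a copy number of 878. The word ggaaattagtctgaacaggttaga was in 65.3% of its windows and had 1973 genomic copies, of which 642 (32.5%) lay in a Gm14412 peak. Gm14412 members centred at a median of 32 bp on the reference of this group and Gm14419 members at 22.5 bp, with wider quartiles of -17.3 and 137 for the latter. GGGCGG, the GC box bound by Sp1, was in 58.6% of the windows, and AGGNGGC, part of the CTCF core, in 60.3%. These 2 words can share bases. In Gm14412 members AGGNGGC lay a median of 16.5 bp from the centre.

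Zfp961 and Zfp429 members fell into smaller groups of lower copy number. The fourth group was 108 Zfp961 windows, with a GC content of 53.5% and a copy number of 94.5, and the sixth was 46 Zfp961 windows and 1 of Gm13152, with 56.0% and 41. In the fourth group, 107 of 307 copies (34.9%) of the leading word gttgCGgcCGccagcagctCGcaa lay in a Zfp961 peak. Of the 206 Zfp961 members, 122 (59.2%) shared an exact 24-base word with at least 1 of 1274 capture probes designed for the study on RLTRETN_Mm, the long terminal repeat of the ETn retrotransposons, as did 1 member of Gm13152 and none of the members of Gm21082, Gm14419, Gm14412, Zfp429, Gm13150 or Gm13154. In all, 126 members shared such a word. None of the 3899 members shared a word with the 134 probes for RLTR4_Mm. The probes cover the outer ends of the long terminal repeats. The paper places the Zfp961 site of ETn elements at the start of the internal region, which adjoins the repeat. Its motif closely resembles a retroviral primer binding site there. A word shared with a probe therefore need not mark where the protein was bound. GGGCGCCA (reverse complement TGGCGCCC) was the 8-base word held by most of the 59 Zfp961 members outside multi-copy sequence, 59.3% of them. It was also in 48.6% of the other distal peaks and 40.9% of the CpG-rich peaks near starts of Zfp961, but in 1.48% of the members of other proteins outside multi-copy sequence and in 0.887% of genome windows that meet the rule. In the printed Zfp961 window it starts at position 82, counted from 1 at the left.

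The seventh group held 45 windows, 43 of them from Zfp429, with a GC content of 57.0% and a copy number of 107, and 42 of 263 copies (16.0%) of its leading word were in a Zfp429 peak. Another 15 Zfp429 windows made the eighth group. The 13 Zfp429 members in the first group aligned 75 bp to the left of the reference centre with a median identity of 81.1%, where Gm21082 and Gm13150 members aligned at 22 and 33 bp with 93.5 and 98.5%.

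Gm13150 and Gm21082 shared loci as well as sequence. Of the 36 member loci of Gm13150, 29 (80.6%) were also member loci of Gm21082, which is 1.71% of the 1691 of the latter. The median false discovery rate that MACS had given the members of Gm13150 was 23.9%, against 0 for Gm21082. Gm14399 shared 16 of its 21 member loci (76.2%) with Gm14419, and all 4 of Gm14410 and 5 of 7 of Gm4631 were also Gm14419 members, while these made up 1.58%, 0.395% and 0.494% of the loci of Gm14419. Median false discovery rates were 44.2% for the members of Gm14399 and 0.34% for those of Gm14419.

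Over all proteins, 3516 of the 3770 loci with a member were bound by 1 KRAB-ZFP, 200 by 2, 43 by 3 and 11 by 4 or more. Within proteins, members were in a locus of 2 or more KRAB-ZFPs more often than the other distal peaks, by a mean of 14.1 percentage points (26.9 against 12.8%, SD 20.6, n = 18), higher in 16 of 18 (sign-flip permutation test, adjusted p = 0.0245). The exceptions were Gm21082, with 2.37% of members against 28.4% of the rest, and Zfp429, with 5.21 against 16.3%. Because Gm21082 held so many members, the pooled shares had the other order, 9.82% of members and 13.7% of the rest. The difference fell to 9.96 points in F9 samples alone and no longer passed (adjusted p = 0.152 in the permutation test). Proteins of the same setup share control libraries, so a locus with a peak in several of them rests partly on the same control reads. A shared locus also counts for each protein in it, as for Gm14399 and Gm14419. The 18 differences are therefore not independent, as the test takes them to be.

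The locus with the most proteins was a peak in an intron of Tmco5b at chr2:113136109-113136326, where 7 KRAB-ZFPs had peaks with folds from 20.01 to 42.05. Of these peaks 1 met the rule, that of Gm13235, with 1 CpG in a window of pyrimidine repeats and a ratio of 0.660. It is one of the 4 members with 3 or fewer CpGs.

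The next locus was CpG-rich in all 6 proteins that bound it. It lay between genes at chr2:30563328-30563737, 9.09 kb from the start of Gm14488, in sequence with a copy number of 1. The folds were 46.58 for Zfp810, 35.45 for Gm13152, 27.20 for Zfp759, 25.36 for Gm13251, 20.91 for Gm13235 and 16.46 for Gm13225. All these samples are from F9 cells, 4 with a FLAG tag and 2 with HA. Another locus outside multi-copy sequence, at chr4:45896612-45896852 in an intron of 1300002K09Rik, was a member in 5 proteins of the HA setup of F9 cells, with folds from 14.85 for Zfp709 to 25.60 for Gm13145. The windows with the highest fold are shown because they are the CpG-rich distal sequences bound by most proteins, at chr2:30563427-30563626 for Zfp810 and chr4:45896653-45896852 for Gm13145.
Zfp810: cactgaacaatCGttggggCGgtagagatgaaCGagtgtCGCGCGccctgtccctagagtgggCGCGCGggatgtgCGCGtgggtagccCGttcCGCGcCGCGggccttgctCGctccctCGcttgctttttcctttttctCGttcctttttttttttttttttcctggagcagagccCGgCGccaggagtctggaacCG
Gm13145: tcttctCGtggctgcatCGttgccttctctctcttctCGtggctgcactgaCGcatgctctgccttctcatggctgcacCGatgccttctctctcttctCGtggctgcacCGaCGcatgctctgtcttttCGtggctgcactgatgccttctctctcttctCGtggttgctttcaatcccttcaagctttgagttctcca

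The Zfp810 window has 22 CpGs and a GC content of 60%, and the Gm13145 window has 10 and 54.0%. A further locus outside multi-copy sequence overlapped a coding exon of the zinc finger gene Zfp777 at chr6:47974733-47975009, with members in Zfp58 (fold 47.36), Gm13152 (32.72), Gm13247 (16.30) and 2610305D13Rik (14.44). The remaining 4 of the 8 most shared loci each had a Gm14419 peak that was a member, together with Gm14410, Gm14399 and Gm4631, and had copy numbers from 190.5 to 520.

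The 598 members outside multi-copy sequence came from 47 KRAB-ZFPs, with 202 of them from Gm13152. They had a median GC content of 58.0%, a CpG ratio of 0.756 and 13 CpGs, and lay a median of 19.1 kb from a start, against 45.0 kb for the multi-copy members. All 87 members in a coding exon were among them, which is 14.5% of 598 (interval 11.9 to 17.6%). With multi-copy peaks counted, the share was 15.7% in CpG-rich peaks near starts and 0.791% in the other distal peaks. It is not given here for other distal peaks outside multi-copy sequence, so the 14.5% has no matched comparison.

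Of all members, 76.9% were intergenic, 20.3% intronic, 2.23% in a coding exon, 0.282% in an untranslated region and 0.308% in another exon. The other distal peaks were 65.2% intergenic, 33.1% intronic and 0.791% in coding exons. Within KRAB-ZFPs members were in introns less often, by a mean of 12.9 percentage points (24.5 against 37.5%, SD 11.9, n = 18), lower in 16 of 18 (sign-flip permutation test, adjusted p = 0.00312). Gm14295 and Gm13235 were the 2 exceptions, at 53.8 against 37.1% and 50 against 43.4%. The share in coding exons was higher by a mean of 4.03 points (5.41 against 1.38%, SD 6.85, n = 18), with an adjusted p of 0.0486 in the permutation test, but higher in 8 and lower in 8 of the 18. Gm13247 with 20.0 against 1.73% (2 of 10 members), Gm13152 with 18.6 against 1.75% (41 of 220) and Zfp661 with 14.3 against 2.23% (4 of 28) were the largest.

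**Figure D4:**
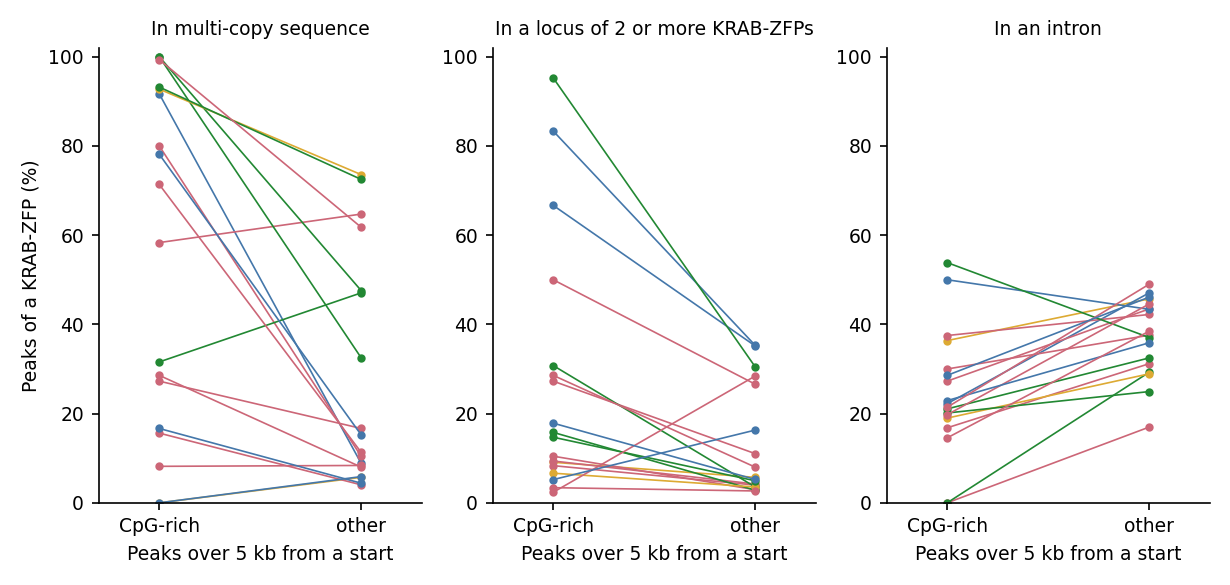
Percent of the peaks of a KRAB-ZFP (y axis) in multi-copy sequence, in a locus bound by at least 2 KRAB-ZFPs and in an intron, for CpG-rich distal peaks and for the other distal peaks. Each line joins the 2 values of 1 of 18 KRAB-ZFPs (blue, F9 cells with HA tag; red, F9 cells with FLAG tag; yellow, F9 cells with HA tag and Bowtie2; green, ES cells). Members were higher in 13, 16 and 2 of 18.

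The fold enrichment of members was compared with that of the other distal peaks of the same protein. The mean difference was 0.09 on the log2 scale (SD 0.15, n = 18), higher in 17 of 18 (adjusted p = 0.0486 in the sign-flip permutation test), and it no longer passed without Gm21082 (0.09, adjusted p = 0.0567 in that permutation test). It was 0.17 with medians in place of means (adjusted p = 0.00416) and 0.19 over peaks outside multi-copy sequence (adjusted p = 0.00317, 12 KRAB-ZFPs), both in the permutation test. The largest were EtOHi1 at 0.47, Gm14412 at 0.28 and Gm14401 at 0.25, and Gm13150 was lower, at -0.30. Tag counts (0.06 on the log2 scale, adjusted p = 0.596) and called widths (0.03, adjusted p = 0.596) did not pass that permutation test. Outside multi-copy sequence, members had more tags by 0.28 and were wider by 0.14 on the log2 scale (both adjusted p = 0.00635, permutation over 12 KRAB-ZFPs). Against the CpG-rich peaks near starts of the same protein, fold (0.08), tags (-0.02) and width (-0.04 on the log2 scale) did not pass, with adjusted p from 0.596 to 0.809 in the permutation test over 15 KRAB-ZFPs.

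Among the 8 proteins with the most members, Gm13152 had the most CpG-rich peaks near starts. It had 2394 CpG-rich peaks within 5 kb of a start and 220 beyond, with a median GC content of 69.8% for the latter. Of its members 41 overlapped a coding exon, 37 an intron and 140 were intergenic. GGGCGG was in 47.3% of them, AGGNGGC in 40.0%, TGCCGC, the methylated site recognised by Zfp57, in 31.8% and the E-box CACGTG in 9.09%. In the genome windows that meet the rule these shares were 19.3%, 16.7%, 12% and 5.50%, and in the CpG-rich peaks near starts of all proteins 59.6%, 41.0%, 28.5% and 6.11%. The genome windows were not matched for GC content, and 2394 of those 4008 peaks near starts were Gm13152's own. The 8-base word held by most of its 202 windows outside multi-copy sequence, GCCGCCGC, was in 19.3% of them, in 36.8% of its peaks near starts and in 0.453% of its other distal peaks.

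After the Prr7 peak, the highest folds of Gm13152 members outside multi-copy sequence and outside a sequence group, chosen after their values were seen, were 111.72 at 26.3 kb from Gsc, a homeobox gene of the gastrula organiser, 92.71 in an intergenic window, 92.46 in a coding exon of the calcium channel gene Cacna1a, 91.78 in a coding exon of Prdm13 and 88.16 in an intron of Prdm16, both of which encode PR domain transcription factors. Zfp961 had a member with a fold of 98.42 in a coding exon of Kiss1, which encodes kisspeptin, and Gm13152 had a member in the same locus. In Enah, which encodes a regulator of actin filaments, coding sequence was a member in 5 proteins, with a highest fold of 43.12.

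Gene lists by the nearest start were counted over all members. Genes whose names begin like those of 14 families of developmental transcription factors, such as Hox, Sox and Fox, were nearest to 25 members (0.641%, interval 0.435 to 0.945%) and 219 of the other distal peaks (0.604%). Outside multi-copy sequence they were nearest to 12 of 598 members (2.01%, 1.15 to 3.47%), in 10 loci, and to 174 of 22840 other distal peaks (0.762%, 0.657 to 0.883%). The Foxp4 peak of Gm13154 (77.09), the Foxo6 coding exon peak of Gm13152 (73.18) and the Gm13152 peaks 6.09 kb from Otx2 (36.36) and in an intron of Gata4 (30.90) were among them. Near Pou4f3, a POU domain factor of sensory neurons, peaks of Gm21082 (fold 74.04), Gm13150 (47.67) and Zfp661 (31.33) overlapped in sequence with a copy number of 1, so 3 of the 12 are 1 locus. The intervals take peaks as independent, and 202 of the 598 members came from Gm13152. By the rule the other distal peaks are not CpG-rich, so the sets also differ in sequence. Whether the shares differ near these genes was not tested.

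Genes named Zfp, Zscan, Zkscan or Zbtb were nearest to 38 members (0.975%, interval 0.711 to 1.33%) and 447 other distal peaks (1.23%), and to 19 of the 598 members outside multi-copy sequence (3.18%, 2.04 to 4.91%), in 15 loci. The interval of all members overlapped that of the other distal peaks (1.12 to 1.35%). Among the other distal peaks outside multi-copy sequence the share was 335 of 22840 (1.47%, 1.32 to 1.63%). These intervals take peaks as independent, while the 19 members lay in 15 loci and 202 of the 598 came from Gm13152. Whether the 2 shares differ was not tested. Coding exons of Zfp777, Zfp787, Zfp444, Zfp275 and Zfp618 held members. Protocadherin genes were nearest to 12 members (0.308%, 0.176 to 0.537%) and 64 other distal peaks (0.176%). Of the members near protocadherins 1 was outside multi-copy sequence, in an intron of Pcdhgc5 with a fold of 42.31 for Zfp661.

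Imprinted genes were nearest to 4 members (0.103%, interval 0.0399 to 0.264%), and to 37 of the other distal peaks (0.102%). The 3 near Ube3a, Inpp5f and Slc38a4 were multi-copy peaks of Gm21082, with folds of 36.02, 32.02 and 24.01. The one outside multi-copy sequence was a Gm13152 peak 23.2 kb from Cdkn1c, an inhibitor of cyclin-dependent kinases, with a fold of 30.90 and a GC content of 74.0%.

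Members lay on every chromosome. Chromosome 1 held 8.80% of them, 7.48% of genome windows and 7.29% of the genome windows that meet the rule. For chromosome X these shares were 6.28%, 6.33% and 4.72%. Chromosome Y held 7 members, with shares of 0.180%, 0.106% and 0.155%. KRAB-ZFPs encoded on chromosome 4 had 2063 members, those on chromosome 2 had 1454, those on chromosome 8 had 212 and those on chromosome 13 had 131, but medians of the share per protein on these chromosomes were 0.676%, 1.23%, 0.704% and 0.972%. Most members of the proteins of chromosome 4 came from Gm21082 alone, with 1691, and most of those of chromosome 2 from Gm14419, with 1013.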

How the data were processed

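ChIP-seq was performed by the authors for 68 KRAB-ZFPs, with 6 inputs or control ChIPs among the 74 samples, and 1 table of peaks was used. Per the study's methods and the submitters' processing notes, reads were mapped to mm9 with Bowtie or Bowtie2, a read with several equally good positions was placed at 1 of them at random, peaks were called per sample with MACS 1.4.2, and each was set to 200 bp around its summit. The p threshold was 1e-10 or 1e-05 and the enrichment threshold 20, 10 or none. Per the study's methods, thresholds were loosened where few peaks were found. All 9 ES samples had 1e-05 and no enrichment threshold, with 256 to 3906 peaks each. The authors deposited for each peak a raw tag count, a score of 10 times the negative log10 p-value, the fold enrichment as a ratio, a false discovery rate in percent, and a width in bp. The score and false discovery rate were not tested. One name in the table with 244 peaks matched no label, held no member and was left out, as was 1 labelled KRAB-ZFP without peaks.

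GC content, the CpG ratio and distances were computed from NCBIM37 (mm9) and gencode vM1. The copy number of a window was the median genomic count of its 24-base words. Windows overlapping by at least 25% were joined into loci. Members were compared with blastn 2.17.0 and grouped at 80% identity over 100 bp, a grouping made after the data were seen. Differences within KRAB-ZFPs with at least 10 peaks of each kind used two-sided sign-flip permutation tests, and setups were set against each other by permuting their labels, two-sided, drawing 100000 resamples or all assignments where fewer (scipy 1.17.1), all adjusted by Benjamini-Hochberg over 13 and 3 tests. The percent intervals are Wilson 95% intervals of counts and cover counting error only, and a count of 0 was given an upper limit of 3 counts. The tests and rules were tested on simulated data.

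The KRAB-ZFPs named are the 8 with the most members, the 8 with the highest and 3 with the lowest percent (at least 10 members or 300 peaks), the peaks named are the strongest of the first 8 (that of 1 of them is not reported here), and the loci are the 8 with the most proteins, ties broken by the mean fold (3 of 6 loci with 4 proteins are named). The members, gene lists and motifs were chosen with earlier results of these data known. Each p-value measures the spread between proteins, which were assayed once.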

Additional observations from a re-analysis of the deposited data

Results flagged for a closer look

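In the 9 ES samples, the share of peaks that were CpG-rich and distal was 25.9% for Gm14419, far from the next highest, 6.52% for Gm14399. The gap was 0.754 of the range of the group, above the critical value of 0.493 for 9 samples. For normally distributed values, chance alone flags about 1 in 20 groups. The 9 samples are different proteins, not replicates, and their shares were skewed (mean 4.93%, median 1.875%), so that rate need not hold here. Among the 10 F9 samples aligned with Bowtie2, the highest share, 16.4% for EtOHi1, was not set apart in this way (gap of 0.309 of the range, critical value 0.466).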

How the results depend on the processing

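Of 185 values under alternatives, 120 kept their direction and their side of the threshold, or moved by less than their interval, 27 no longer passed, 2 newly passed, 31 changed sign and 5 percents moved by more than their interval. The percent of peaks that met the rule was 10.0% with p under 1e-10 and fold over 20, 8.44% with fold over 10, 1.53% with a GC content of 55% and a CpG ratio of 0.65 (the stricter sequence rule), 8.0% with 2 kb and 6.42% with 10 kb from every start, against 7.36%. The intron difference passed under each alternative run for it except without members of a sequence group (-8.33 points), and the multi-copy difference from other distal peaks did not pass with p under 1e-10 and fold over 20 (26.3), with the stricter sequence rule (19.6) or with at least 20 peaks of each kind (34.1), nor did the one from CpG-rich peaks near starts with at least 20 peaks (37.6). Only members had been sorted into sequence groups. The setting without members of a sequence group therefore took repeated sequence out of the members but left it among the peaks they were compared with. The fold difference fell below the threshold at p under 1e-10 with fold over 20 (0.0193) and over 10 (0.0597), the stricter sequence rule (0.0270), 10 kb (0.0505), at least 20 peaks (0.0399), without Gm21082 (0.0905), in F9 samples only (0.0804) and without members of a sequence group (0.0631).

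The shared locus difference did so at p under 1e-10 with fold over 20 (7.12 points) and over 10 (8.66), the stricter sequence rule (10.3), 10 kb (13.6), at least 20 peaks (11.5), F9 samples (9.96), an overlap of 50% (12.1) and without members of a sequence group (5.74), and the coding exon difference at fold over 20 (3.72) and over 10 (3.26), the stricter sequence rule (7.12), 10 kb (2.14), at least 20 peaks (3.48) and F9 samples (4.55). These settings leave 8 to 18 KRAB-ZFPs, and the cause was not tested. With peaks outside multi-copy sequence (copy number under 10) only, tags (0.275) and width (0.136) passed, and the fold difference was 0.186 there and 0.166 with medians.

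Differences that did not pass as reported changed sign as follows. Against other distal peaks, tags reversed at fold over 20 (-0.0408), 10 kb (-0.000558) and at least 20 peaks (-0.0104), width at fold over 20 (-0.00700), and distance, which the rule itself cut, at fold over 20 (0.0457) and over 10 (0.00404), the stricter sequence rule (0.0119), 10 kb (0.00168) and at least 20 peaks (0.0826). Against CpG-rich peaks near starts, tags reversed at fold over 10 (0.00234), the stricter sequence rule (0.0118), 2 kb (0.0793), at least 5 (0.0105) or 20 peaks (0.0231), medians (0.0417), peaks outside multi-copy sequence (0.0987) and without sequence groups (0.0414), width at 2 kb (0.00463), peaks outside multi-copy sequence (0.0524) and without sequence groups (0.0326), and shared loci with at least 5 peaks (0.983). Between setups, FLAG against HA reversed with the stricter sequence rule (-0.187) and without Gm21082 (-0.482), F9 against ES with fold over 20 (0.946), the stricter sequence rule (0.872), distal peaks as the total (0.187) and peaks outside multi-copy sequence (0.507), and Bowtie against Bowtie2 with fold over 20 (-1.03), peaks outside multi-copy sequence (-0.493), without Gm21082 (-0.195) and without the 4 KRAB-ZFPs with a median false discovery rate of 100% (-0.486).

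The settings without Gm21082 between setups, without those 4 KRAB-ZFPs and without sequence groups were chosen after seeing the data. The share of masked bases was not run, because the reference used here marks none. The depth of the libraries is unknown, so a missing peak cannot be read as missing binding, and each protein was assayed once. No paired analysis was possible because the labels carry no replicate numbers, and the numbers of the samples only name them. Each KRAB-ZFP has 1 sample, and the tests within KRAB-ZFPs pair kinds of peaks of that sample.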
